A study of Mus musculus with 3 samples.

Results

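The comparison described here set the array of fully mature dendritic cells (mDC) against the array of semi-mature dendritic cells (tDC). A gene entered the comparison if its probe had a detection p under 0.01 on at least 1 of these arrays. This gave 7832 genes, out of 8055 when the immature array is counted too. Of the 7832 genes, 7289 were detected on both arrays, 242 on the mDC array alone and 301 on the tDC array alone.

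Dendritic cells were grown for 8 days from the bone marrow of DBA mice aged 6 weeks, in medium with 20 ng/mL of GM-CSF and 2 ng/mL of interleukin-4, which all groups received. The mDC culture then received lipopolysaccharide (LPS) at 1 µg/mL with type II collagen at 50 µg/mL for 24 h. The tDC culture, labelled semi-mature or tolerogenic, received TNF-alpha at 10 ng/mL with the same amount of collagen for 4 h. The immature culture (imDC), for which the labels name no stimulus and no time of harvest, is given beside them for its levels only. Each group was 1 RNA sample of 550 ng on 1 Illumina bead array, and whether marrow of several mice was pooled is not given in the sources used here. LPS against TNF-alpha and 24 h against 4 h differed together, and the effect of one cannot be told apart from that of the other. With 1 array a group there was no replicate and no test, and a difference below compares 2 libraries, not 2 conditions.

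Maturation is the change by which a dendritic cell that samples antigen becomes one that activates T cells. LPS, the outer-membrane lipid of Gram-negative bacteria, is sensed by the receptor TLR4, which signals through MyD88 to NF-kB and through TRIF to IRF3 and the interferon beta gene. Secreted interferon beta then acts back on the cells through STAT2 and IRF9, which bind the interferon-stimulated response element in the promoters of antiviral genes. TNF-alpha acts through its own receptors, mainly on NF-kB and MAP kinases. Cells held in GM-CSF and interleukin-4 also carry a programme of STAT6 and PPAR-gamma targets that includes lectin receptors and arginase.

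Depth was even between the arrays, with 10764 of 25697 probes detected for tDC and 10673 for mDC, and a median signal of 125 intensity units on each. The label of dendritic cell was checked against a list of 20 markers. Of these, 15 were detected, all on both arrays, among them Cst3, Cd74, H2-Ab1, Itgax, Zbtb46, Fscn1 and Ccr7. Flt3, Cd209a, Clec9a, Xcr1 and Cd24a were above background on neither array. The median difference of the 15 was -0.06 on the log2 scale, against -0.02 over all 7832 genes. With no detection filter the median of these markers was -0.24. Reference genes were level: all 8 measured ones lay between -0.32 (Ywhaz) and 0.20 (B2m), with Actb at 0.04 and Gapdh at 0.03.

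Most genes had like levels on both arrays. Signals are given below in the units of the deposited table, before any correction, so that for dim genes a fold, taken after background correction, exceeds the plain ratio of the signals. Differences are log2 values after background correction and normalization, mDC minus tDC, and a gene was counted as higher or lower at a difference of 1, which is 2-fold. By that measure 269 genes were higher in mDC, 3.43% of those tested, and 219 were lower, 2.8%, which makes 488 genes or 6.23% in either direction. Of these, 72 were higher by 4-fold and 34 lower by as much, and 25 and 9 reached 8-fold. The shares of 3.43% and 2.8% are the background for each list count below. The 5th percentile of the differences was -0.76 and the 95th 0.76. A second probe was detected on both arrays for 40 of the higher genes and 30 of the lower genes, and had the same sign for all of them. That probe was also 2-fold different for 38 and 21 of them. Across all 1812 genes with such a pair, the probes of a gene disagreed by a median of 0.13 and by 0.44 at the 95th percentile, which is technical scatter within these libraries and not replicate error.

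**Figure D1:**
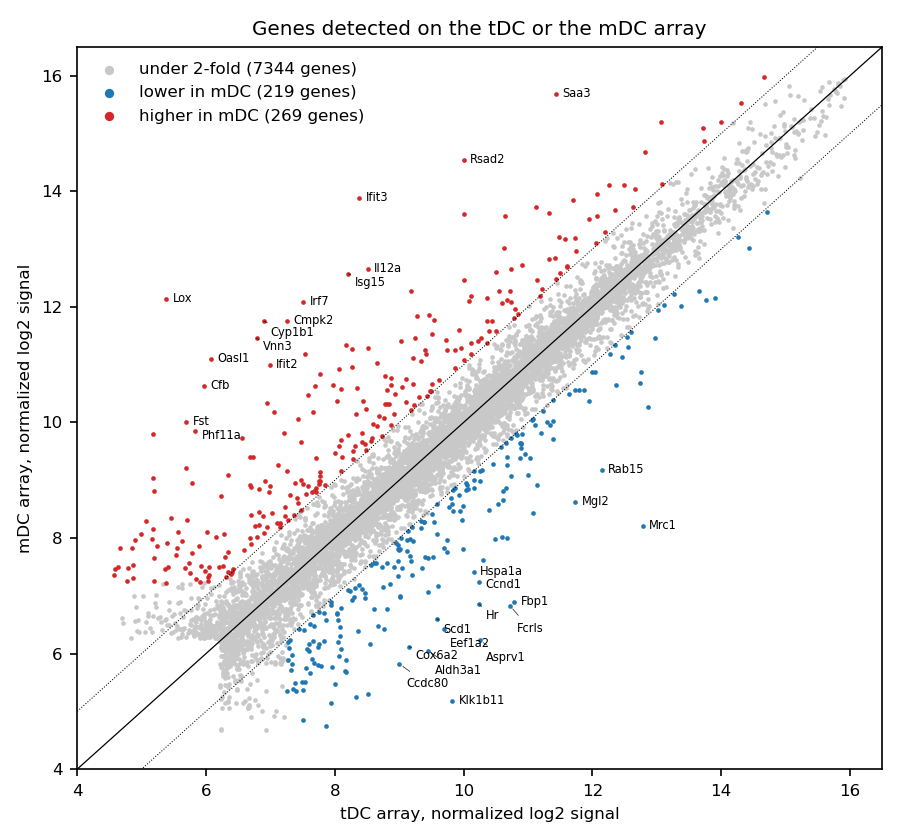
Normalized log2 signal of 7832 genes on the tDC array (horizontal) and the mDC array (vertical), 1 point a gene. The solid line marks equal levels and the dotted lines 2-fold. Red points are the 269 genes higher in mDC and blue points the 219 lower ones, and most genes lie between the dotted lines.

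The genes that stood highest above tDC were of several kinds. Lox, lysyl oxidase, which crosslinks collagen and elastin, gave 121 units on the tDC array, 111 on imDC and 4509 on mDC. It was above background on the mDC array alone, so its difference is a bound of at least 60.9-fold. For such a bound, the value on the array that lacks detection is replaced by the dimmest detected value of that array, unless the probe itself read brighter. Cyp1b1, a cytochrome P450 that oxidizes steroids and aromatic compounds, gave 200.5 units in tDC and 3455 in mDC, 28.9-fold higher. Vnn3, of the vanin family, gave 192 and 2805 units, 25.4-fold higher. Both were below background on the imDC array and dim in tDC, and their mDC signal carried the difference. Fst, follistatin, which binds activins, was at 133 units in tDC, not above background, and at 1053 in mDC, at least 13.8-fold higher. Most of the other leading genes were interferon-stimulated or acute-phase genes, described below.

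At the other end, Mrc1, the mannose receptor, gave 14084 units on imDC, 7250.1 on tDC and 358 on mDC, and was 23.7-fold lower in mDC than in tDC. Fbp1, the fructose bisphosphatase of gluconeogenesis, gave 7636, 1823 and 194 units in the same order and was 14.8-fold lower. Fcrls, an Fc receptor-like gene, was 14.9-fold lower, at 1753 units in tDC and 188 in mDC. All 3 were highest on the imDC array and stepped down to tDC and again to mDC. Hr, the corepressor hairless, was 10.5-fold lower, Eef1a2, a translation elongation factor, 9.65-fold, and Rab15, a GTPase of endosomal recycling, 7.81-fold. Bounds of at least 15.9-fold for Asprv1, at least 11.8-fold for Klk1b11, at least 9.13-fold for Aldh3a1 and at least 6.70-fold for Ccdc80 came from genes detected in tDC alone. Folds of dim genes depended on the background step: without it Lox stood at least 26.6-fold higher, Cyp1b1 16.2-fold, Vnn3 13.8-fold and Fst at least 6.46-fold. Likewise Fbp1 stood 8.52-fold lower, Fcrls 8.38-fold, Hr 6.09-fold, Eef1a2 4.99-fold, Asprv1 at least 7.47-fold, Klk1b11 at least 5.70-fold, Aldh3a1 at least 4.53-fold and Ccdc80 at least 3.47-fold.

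Interferon-stimulated genes had the largest median difference of the 31 lists with at least 10 tested genes. Of 38 tested members of the list, 32 were higher in mDC by 2-fold and 0 were lower, against 3.43% higher among all genes. All 38 differences were above 0, with a median of 2.14 against -0.02 over all genes. The values of Isg20, Oas1a, Oas3, Oasl1, Rtp4, Ifih1 and Tgtp1 are bounds from detection on the mDC array alone, which cannot fall below 0. The members detected on both arrays were above 0 too, from 0.27 for Samhd1, with a median of 2.32. The promoters of the list members are shown first, because the block could be set against the sequence element of the pathway. A core of the interferon-stimulated response element, the letters GAAA, 2 bases of any kind and GAAA again, was searched on both strands of RefSeq promoter windows of assembly GRCm38.p6, from 250 bases before a gene's start to 50 after it. It stood in 17 of the 29 list members with a window (58.6%), in 258 of 6456 tested genes (4.00%) and in 1131 of all 32851 windows (3.44%).

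For 5 members, the 160 bases before the start are printed on the gene's strand with each match in capitals. They are Ifit3 (chr19:34583369-34583528, plus strand), Isg15 (chr4:156200819-156200978, minus strand), Rsad2 (chr12:26456453-26456612, minus strand), Bst2 (chr8:71537473-71537632, minus strand) and Irgm1 (chr11:48871421-48871580, minus strand).
Ifit3: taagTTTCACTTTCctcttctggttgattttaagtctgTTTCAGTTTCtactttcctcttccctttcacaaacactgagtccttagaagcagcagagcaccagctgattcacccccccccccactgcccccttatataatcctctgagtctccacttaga
Isg15: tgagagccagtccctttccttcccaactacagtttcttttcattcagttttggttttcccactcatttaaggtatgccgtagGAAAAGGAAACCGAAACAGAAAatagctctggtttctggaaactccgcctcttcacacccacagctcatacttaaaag
Rsad2: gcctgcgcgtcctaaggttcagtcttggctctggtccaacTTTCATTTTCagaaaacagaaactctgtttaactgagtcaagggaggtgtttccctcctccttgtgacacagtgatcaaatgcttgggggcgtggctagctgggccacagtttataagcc
Bst2: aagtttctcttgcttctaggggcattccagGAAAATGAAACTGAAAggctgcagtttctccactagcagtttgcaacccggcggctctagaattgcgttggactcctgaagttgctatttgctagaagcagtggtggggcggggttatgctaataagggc
Irgm1: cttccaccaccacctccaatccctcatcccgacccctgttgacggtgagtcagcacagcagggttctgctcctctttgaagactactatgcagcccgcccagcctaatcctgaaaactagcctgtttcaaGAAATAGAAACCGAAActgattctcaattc
Ifit3 and Rsad2 hold matches in the orientation read on the other strand, Ifit3 with 2 of them, and in Isg15 3 matches overlap in 1 run. Irgm1 is shown because it holds the letters and its probes disagreed: the brighter one, which stands for the gene, differed by 0.27, and the other, also detected on both arrays, by 2.54. The other 4 genes were higher by 1.78 (Bst2) to 5.51 (Ifit3). A match of letters is a description of the sequence and not a bound site.

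Ifit3, an antiviral protein with tetratricopeptide repeats, gave 700.2 units on imDC, 413 on tDC and 15127 on mDC, 45.5-fold above tDC. Rsad2 (viperin), an enzyme that makes a chain-terminating nucleotide, gave 803, 1105 and 23265 units, 23.4-fold above tDC. Isg15, the ubiquitin-like modifier, gave 333, 376 and 6097 units, 20.5-fold. In each of these imDC and tDC were both low and mDC stood far above them. Cmpk2, a mitochondrial nucleotide kinase, was 22.7-fold higher, at 233 units in tDC and 3475 in mDC. Ifit2 was 16.1-fold higher, at 208 and 2068 units. Oasl1, a relative of the oligoadenylate synthetases, was at 149 units in tDC, not above background, and at 2184 in mDC, at least 29.4-fold higher.

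The transcription factors of the pathway were higher as well. Irf7, which amplifies interferon production, gave 266 units in imDC, 261 in tDC and 4323 in mDC, 23.9-fold above tDC. Stat2 went with 571 units in tDC and 1456 in mDC, 2.93-fold higher, and Irf9, its DNA-binding partner, with 1073 and 2526 units, 2.53-fold. Batf2, a basic leucine zipper factor, was 6.79-fold higher, at 162 and 595 units. The list of interferon regulatory and STAT factors held 19 tested genes, 5 of them higher and 0 lower, with a median of 0.00: Irf3 lay at -0.16, Irf5 at -0.20, Stat6 at -0.08, Stat3 at 0.51 and Irf1 at 0.80. Genes of this block and the later ones that lie outside the naming rule given with the processing, such as these 5, were chosen after their values were seen.

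Sensors, effectors and brakes were in the block together. Oas2, Oas3, Oas1g and Oas1a, the synthetases that activate RNase L, were higher by 12.6-fold, at least 6.02-fold, 8.52-fold and at least 3.26-fold. The RNA sensors Ddx58 (RIG-I) and Dhx58 (LGP2) were 6.10-fold and 8.04-fold higher, whereas Ifih1 (MDA5) was barely above background in mDC, at 155 units, with a bound of 0.04. Usp18, which removes Isg15 from proteins and damps receptor signalling, gave 1670.4 units in tDC and 12426 in mDC, 7.65-fold higher. Bst2, tetherin, which holds budding virus at the cell surface, was 3.43-fold higher, and Ifitm3, which blocks viral fusion, 4.40-fold. The members under 2-fold were Ifi35, Adar, Irgm1, Samhd1, Tgtp1 and Ifih1, from 0.98 down to 0.04 by their brightest probes, of which Tgtp1 and Ifih1 are bounds. A second probe, detected on both arrays, was higher by more than 2-fold for Adar (1.38) and Irgm1 (2.54), so that these depend on the probe. Of the list, Ifit1, Trim30a, Xaf1 and Iigp1 were above background on neither array. Ifnb1, the gene of interferon beta itself, was also above background on neither. The dim members had smaller folds without background correction: Irf7 15.8-fold, Cmpk2 14.1-fold, Ifit2 9.47-fold, Batf2 3.58-fold and Oasl1 at least 14.4-fold.

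**Figure D2:**
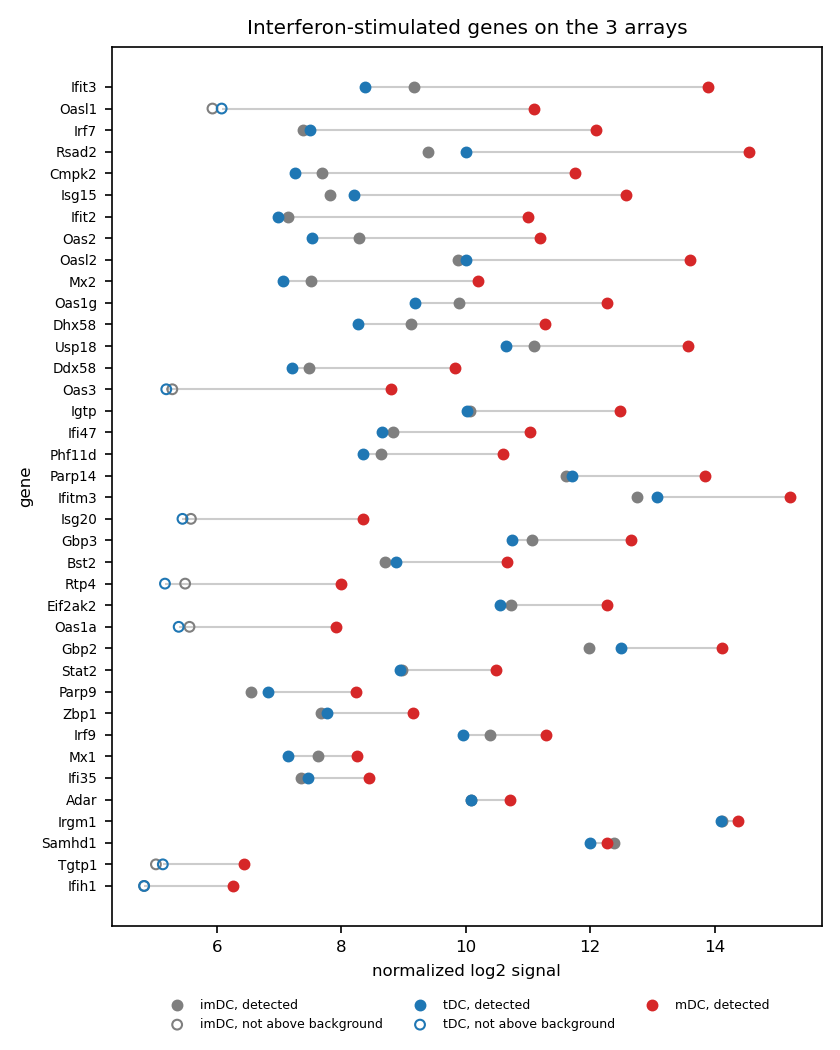
Normalized log2 signal of the 38 tested interferon-stimulated genes on the imDC (grey), tDC (blue) and mDC (red) arrays, 1 row a gene, ordered by difference. Open circles were not above background. The mDC point lies to the right of the tDC point in every row, from 0.27 for Samhd1 to 5.51 for Ifit3 among genes detected on both arrays. Genes with an open tDC circle passed the filter by their mDC signal, which favours this order. In most rows imDC and tDC lie closer to each other.

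The response element letters were more frequent the further a gene stood above tDC. They were in 175 of 5255 promoters of genes within 0.5 of equal levels (3.33%), in 21 of 359 at 0.5 to 1 (5.85%), in 18 of 137 at 1 to 2 (13.1%) and in 16 of 53 at 2 or more (30.2%). On the lower side they were in 23 of 483 at -1 to -0.5 (4.76%) and in 5 of 169 of the 2-fold lower genes (2.96%). Of the 34 higher genes with the letters, 14 were list members and 20 were not. The latter included Gbp2b, Gbp7 and Gbp5, guanylate-binding proteins of cell-autonomous defence, at 2.70, 2.68 and 1.31, Irgm2 at 2.02, Trim21 at 1.75, Gpr18 at 2.38 and Phf11a at a bound of 3.64, or at least 6.51-fold without background correction. They also included Saa3, Cxcl10, Socs1 and Lgals9, which are described below.

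**Figure D3:**
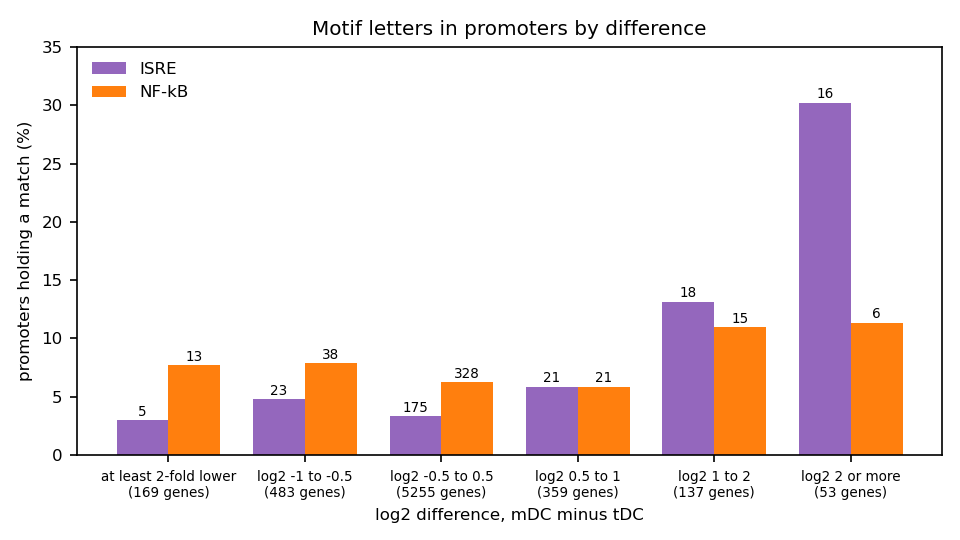
Share of promoters, in percent, that hold the letters of the interferon-stimulated response element (purple) or of an NF-kB site (orange), for 6 ranges of the log2 difference, mDC minus tDC. Numbers above the bars count the promoters with a match. The purple bars stand at 2.96% in the lowest range, 4.76% at -1 to -0.5 and 3.33% near equal levels, and rise to 30.2% in the highest. The orange bars stand at 7.69% in the lowest range and 11.3% in the highest, with their lowest share, 5.85%, at 0.5 to 1.

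Inflammatory cytokines were divided. Of 18 tested genes, 5 were higher in mDC and 1 was lower, against 3.43% and 2.8% of all genes, and the median was 0.68. Il12a, the alpha subunit of interleukin-12, which drives type 1 helper T cells, gave 122 units in imDC, not above background, 447 in tDC and 6489 in mDC, 17.7-fold above tDC. Il6 gave 264, 685 and 2822 units, 4.66-fold. Both stepped up from imDC to tDC and again to mDC. Csf2, the gene of GM-CSF, was at 146 units in tDC, not above background, and at 336 in mDC, at least 3.69-fold higher. Il1a gave 13660.0 and 35312 units, 2.61-fold higher, and Tnfsf15 (TL1A) was at least 2.42-fold higher.

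The first-line cytokines Tnf and Il1b differed by less than 2-fold between the tDC and mDC arrays, though Il1b lay just above the 95th percentile of all genes (0.76). Tnf gave 491 units in imDC, 6956 in tDC and 9326 in mDC, a difference of 0.42 between the last pair. Il1b gave 4957, 33827 and 59460.2 units, a difference of 0.77, with the mDC signal near the top of the scale, where differences can be understated. For both genes the step from imDC to tDC was the large one. Osm (-0.36), Il18 (-0.34) and Il23a (-0.71) were lower in mDC by less than 2-fold. Ebi3 at 0.83 and Il27 at a bound of 0.91, the subunits of interleukin-27, were higher by less than 2-fold. Csf1, the macrophage growth factor, was the one cytokine lower by 2-fold, at 1033 units in imDC, 1955 in tDC and 793 in mDC, 2.51-fold below tDC. Without background correction the Csf2 bound was at least 2.15-fold and that of Tnfsf15 at least 1.61-fold, which does not reach 2-fold. The median of the list was then 0.44.

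Chemokines were mostly a little higher, with a median of 0.55. By 2-fold 7 of 18 were higher and 2 lower, against 3.43% and 2.8% of all genes. Ccl2, which attracts monocytes, gave 2005 units in imDC, 1628 in tDC and 4289 in mDC, 2.78-fold above tDC. Cxcl1, a neutrophil attractant, gave 1031, 20684 and 49312 units, 2.34-fold, and Cxcl3 238 and 483 units in tDC and mDC, 2.72-fold. Cxcl10, an interferon-inducible attractant of T cells, gave 632 and 1335 units, 2.37-fold. Cxcl1, Cxcl3 and Cxcl10 were already far above imDC on the tDC array, while Ccl2 was not. Ccl5 was 2.29-fold higher, Ccl22 2.10-fold and Cxcl16 2.07-fold. Ccl3 (0.84), Ccl4 (0.24), Cxcl2 (0.74) and Ccl17 (0.29) stayed under 2-fold, and a second Ccl4 probe gave 0.65. The mDC signals of Ccl3, Ccl4 and Ccl17, at 48971, 59044 and 50514 units, were near the top of the scale, like that of Cxcl1. Differences can be understated there. Ccl6 gave 9036, 6966 and 1653 units, 4.16-fold lower in mDC than in tDC, and Ccl24 7595, 5432 and 2615 units, 2.01-fold lower and 1.98-fold without background correction.

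The outer bases of an NF-kB site, GGGA, 3 bases of any kind and TCC, were searched in the same windows on both strands. They stood in 5 of 12 chemokine promoters with a window (41.7%) and 3 of 12 cytokine promoters (25%), against 421 of 6456 tested genes (6.52%) and 4.59% of all windows. In the list of NF-kB subunits and targets they stood in 2 of 17 (11.8%). The windows of Il12a (chr3:68691264-68691423, plus strand), Cxcl1 (chr5:90891085-90891244, plus strand) and Csf1 (chr3:107760470-107760629, minus strand) are printed as above, since these genes hold the letters and differed by 4.14, 1.23 and -1.33.
Il12a: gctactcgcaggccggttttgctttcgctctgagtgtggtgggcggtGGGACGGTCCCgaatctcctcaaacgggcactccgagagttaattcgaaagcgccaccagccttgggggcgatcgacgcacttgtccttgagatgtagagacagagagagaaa
Cxcl1: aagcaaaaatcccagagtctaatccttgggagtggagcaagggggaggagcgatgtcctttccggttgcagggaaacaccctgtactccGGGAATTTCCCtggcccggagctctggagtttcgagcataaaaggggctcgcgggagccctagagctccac
Csf1: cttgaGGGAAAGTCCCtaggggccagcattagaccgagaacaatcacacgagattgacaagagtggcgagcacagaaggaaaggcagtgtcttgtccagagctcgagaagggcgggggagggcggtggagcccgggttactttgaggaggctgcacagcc
The capitals mark the matches, which in these 3 windows can be read on both strands. Over the ranges of the difference the share with these letters was 6.24% near equal levels, 5.85% at 0.5 to 1, 10.95% at 1 to 2 and 11.3% at 2 or more. On the lower side it was 7.87% at -1 to -0.5 and 7.69% among the 2-fold lower genes. This was a smaller spread than that of the interferon letters. The letters were thus found both in genes that were higher in mDC and in Csf1, which was lower.

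Signalling genes that serve the first wave were level between the arrays. Of 20 tested NF-kB subunits and targets, 0 were higher and 0 lower by 2-fold, with a median of -0.03. Nfkbia, the inhibitor that NF-kB itself induces, gave 4244 units in imDC, 9635 in tDC and 10254 in mDC. Tnfaip3 (A20), a brake on the pathway, gave 1469.8, 5448 and 6226 units. Both arrays of stimulated cells lay well above imDC and close to each other. The extremes were Rel at -0.54 and Traf1 at 0.84. Of 16 feedback inhibitors, 1 was higher, beside 3.43% of all genes. It was Socs1, which blocks JAK kinases, at 205 units in tDC and 353 in mDC, 2.36-fold. Without background correction Socs1 stood at 1.75-fold. Socs3 and Irak3 followed at 0.95 and 0.95.

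Immediate early transcription factors, by contrast, held 4 lower and 0 higher genes of 14, against 2.8% and 3.43% of all genes. Nr4a3, an orphan nuclear receptor, gave 168 units in imDC, 352 in tDC and 147 in mDC, not above background there, at least 3.55-fold lower. Egr2, a zinc finger factor, gave 14386, 10626 and 4145 units and was 2.56-fold lower. Klf4 was 2.60-fold lower, at 586 units in tDC and 264 in mDC, and Maff 2.14-fold lower, at 375 and 211. Egr2 and Klf4 were highest in imDC, whereas Nr4a3 and Maff were highest in tDC. Fos (0.97), Egr1 (0.41) and Junb (0.16) were higher by less than 2-fold. Without background correction Nr4a3 was at least 2.11-fold lower and Maff 1.66-fold.

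Receptors that sense microbes were mostly level, with a median of 0.07. Of 23 tested, 2 were higher and 0 lower, beside 3.43% and 2.8% of all genes. Nod1, a cytosolic sensor of peptidoglycan, gave 1013 units in tDC and 1984 in mDC, 2.11-fold higher, and Tlr1 a bound of at least 2.05-fold, or at least 1.45-fold without background correction. Tlr4, the LPS receptor, gave 2726, 3234 and 2122 units over imDC, tDC and mDC, a difference of -0.57 between the last pair. Cd14, which hands LPS to it, gave 5363, 23886 and 34678 units, a difference of 0.60. Tlr4 was thus lowest in mDC and Cd14 highest.

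Antigen presentation leaned in opposite directions for the classes of MHC. Of 20 tested genes of MHC class I presentation, which shows peptides of cytosolic proteins to CD8 T cells, 4 were higher in mDC and 0 lower, 18 differences were above 0, and the median was 0.63. Of 16 class II genes, which serve CD4 T cells, 0 were higher and 3 lower, 14 differences were below 0, and the median was -0.59. Among all genes, 3.43% were higher and 2.8% lower. Nlrc5, the transactivator of class I genes, gave 816 units in imDC, 549 in tDC and 1777 in mDC, 3.73-fold above tDC. Ciita, its class II counterpart, gave 1129.8, 753 and 513 units, a difference of -0.55. Nlrc5 was thus highest in mDC and Ciita lowest.

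Behind Nlrc5, Tap1, a subunit of the peptide transporter, was 2.24-fold higher, Psmb9, an immunoproteasome subunit, 2.12-fold, and Cd1d1, which presents lipids, 2.28-fold. The heavy chains H2-K1 and H2-D1 stood at 0.55 and 0.72. On the class II side, H2-Ab1, the beta chain of I-A, gave 26448, 27198 and 12897 units, 2.10-fold lower in mDC than in tDC. H2-DMa, a subunit of the peptide exchanger, gave 6606, 3289.7 and 1451 units, 2.21-fold lower. Lgmn, an asparaginyl endopeptidase of the lysosome, gave 9958, 5873 and 2227 units, 2.53-fold lower. H2-Ab1 was nearly equal in imDC and tDC, while H2-DMa and Lgmn were already lower in tDC. H2-Eb1 (-0.90), H2-Aa (-0.70), H2-DMb1 (-0.65), Cd74 (-0.63) and Ctss (-0.30) leaned the same way under 2-fold. Levels of H2 genes are uncertain, because their probes can cross-react with relatives and can read DBA alleles poorly.

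Costimulatory ligands held 3 higher and 0 lower genes of 10, against 3.43% and 2.8% of all genes, with a median of 0.20. Cd40, through which T cells license dendritic cells, gave 2605 units in imDC, 6593 in tDC and 16945 in mDC, 2.62-fold above tDC. Cd70, the ligand of CD27, gave 224, 396 and 816 units, 2.44-fold, and Slamf1 3315, 4406 and 8941 units, 2.08-fold. These 3 stepped up from imDC to tDC to mDC. The B7 ligands that are most used to define mature cells differed little: Cd86 gave 11787, 14459 and 17074 units and Cd80 2279, 2189 and 2614, differences of 0.24 and 0.31 between mDC and tDC. Cd83, another maturation marker, was at -0.03. Tnfsf18, of the costimulatory list, was detected in tDC alone, at 203 units against 88.3 in mDC. Its bound of -0.67 does not reach 2-fold, while its measured difference was -2.25.

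Genes linked to T cell inhibition and tolerance did not lie on the tDC side as a group. Of 19 tested, 3 were higher in mDC and 2 lower, against 3.43% and 2.8% of all genes, and the median was -0.02. Il10, an inhibitory cytokine, was at 99.1 units in imDC and 108 in tDC, above background on neither, and at 374 in mDC, at least 4.21-fold higher. Ido1, which breaks down tryptophan, gave 222, 185 and 395 units, 3.27-fold above tDC, and Lgals9, galectin-9, 1076, 604 and 1572 units, 2.97-fold. All 3 were thus highest in the cells called fully mature. Arg1, arginase, which depletes arginine, gave 17457, 7597 and 1258 units, 6.04-fold lower, and Havcr2 (TIM-3) was 2.13-fold lower. Cd274 (PD-L1) was at 0.38, Pdcd1lg2 (PD-L2) at -0.03, Il1rn at -0.26, Tgfb1 at -0.67 and Aldh1a2, a retinoic acid synthase, at -0.83. Without background correction Il10 was at least 2.37-fold and Ido1 2.15-fold higher, and Havcr2 stood at 1.96-fold.

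Receptors for antigen uptake were lower more often than higher. Of 23 tested genes, 9 were lower in mDC and 3 higher, against 2.8% and 3.43% of all genes, and the median was -0.46. After Mrc1, the largest were Mgl2 and Clec10a, a pair of lectins for galactose-type sugars. Mgl2 gave 6403 units in imDC, 3533 in tDC and 447 in mDC, 8.65-fold lower than in tDC. Clec10a gave 1106, 455 and 150.2 units, at least 4.87-fold lower, not above background in mDC. Clec7a (dectin-1), the receptor for fungal glucan, gave 9383, 8219.6 and 2802 units, 2.87-fold lower. Mgl2 and Clec10a stepped down over the 3 arrays, while Clec7a was nearly level until mDC. Mertk, which clears apoptotic cells, was 3.66-fold lower and Axl, its relative, at -0.97. Clec5a was 3.78-fold lower and Clec4b1 2.03-fold by their brightest probes, but a second probe gave -0.78 and -0.41 on the log2 scale, and the mean of probes 2.39-fold and 1.64-fold. Cd207 (langerin) and Cd209c were at least 3.03-fold and 2.63-fold lower.

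In the other direction, Marco, a scavenger receptor for bacteria and particles, gave 299.9, 271 and 1441 units, 7.40-fold higher in mDC than in tDC. Clec4a1 gave 277, 780.4 and 3714 units, 5.29-fold higher, and Scarf1 was 2.27-fold higher. Clec4e (Mincle) and Clec4d, sensors of mycobacterial glycolipid, were high in both stimulated cultures, at 6912 and 11352 units for Clec4e against 434 in imDC. The uptake list thus held lectins at both ends of the comparison. Without background correction Clec10a was at least 2.68-fold lower, Clec4b1 (1.94-fold) and Scarf1 (1.87-fold) were under 2-fold, and the bounds of Cd207 (at least 1.88-fold) and Cd209c (at least 1.71-fold) did not reach it. Over members detected on both arrays the median was -0.24.

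Genes linked to interleukin-4 and alternative activation overlap with the uptake receptors and were lower more often than higher. Of 20 tested genes 11 were lower and 1 higher, against 2.8% and 3.43% of all genes. Below 0 were 17 differences, and the median was -1.07. Beyond Mrc1, Fcrls, Mgl2, Clec10a, Arg1, Klf4 and Egr2, already described, they included Retnla, a secreted protein of type 2 inflammation, at 2791 units in imDC, 1635 in tDC and 457 in mDC, 3.86-fold lower. Pparg, a nuclear receptor of fatty acid metabolism, gave 2965, 2745 and 1064 units, 2.57-fold lower. Retnla stepped down over the 3 arrays, while Pparg was nearly level until mDC. F13a1 was at least 2.19-fold lower, or at least 1.52-fold without background correction. Chil3 (-0.22), Ccl17 (0.29), Pdcd1lg2 (-0.03) and Irf4 (-0.46) did not reach 2-fold, and Ccl22 was the higher member.

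**Figure D4:**
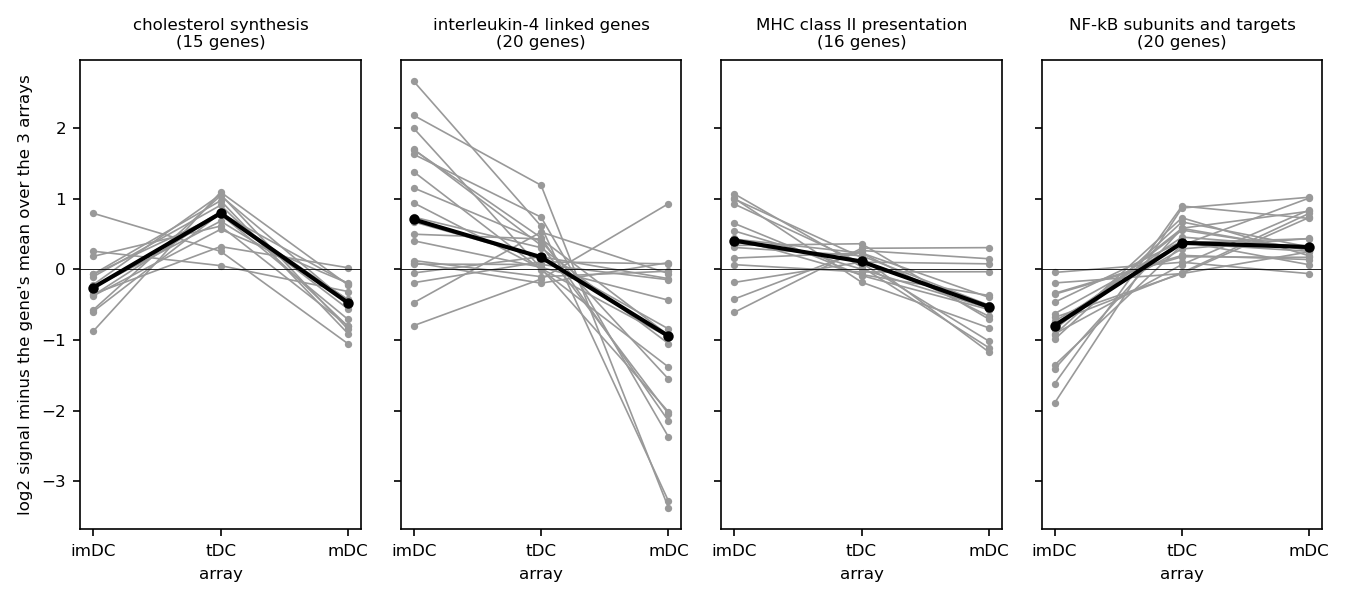
Log2 signal of each gene (grey lines) on the imDC, tDC and mDC arrays, after its mean over the 3 arrays was taken off, for 4 lists, with the median in black. Signals not above background are drawn at their measured value. The black median of cholesterol genes is highest on the tDC array and lowest on the mDC array, those of interleukin-4 linked and class II genes step down to mDC, and that of NF-kB genes is alike in tDC and mDC. Single genes depart from these medians, such as Ccl22, Marchf1 and Msmo1.

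Receptors and structural genes of migration differed little, with 0 higher and 2 lower of 16, beside 3.43% and 2.8% of all genes. Ccr7, the receptor that guides mature cells to lymph nodes, gave 2863 units in imDC, 3892 in tDC and 4423 in mDC, a difference of 0.25 between the last pair. Fscn1, fascin, which bundles actin in dendrites, was at 0.83. Cd44, the hyaluronan receptor, was 2.33-fold lower and Cxcr4, the receptor for Cxcl12, 2.00-fold lower. Among 7 chemoattractant receptors 3 were lower and 0 higher. Cxcr2, the receptor for Cxcl1, gave 1136, 1089 and 291 units, 4.51-fold lower, and Ccr6 427, 341 and 178 units, 2.56-fold lower. Both were nearly level from imDC to tDC and low in mDC. Without background correction Ccr6 (1.79-fold) and Cxcr4 (1.90-fold) were under 2-fold.

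The enzymes of cholesterol synthesis were lower in mDC almost throughout. Of 15 tested genes, 11 were lower by 2-fold and 0 higher, against 2.8% and 3.43% of all genes. All 15 differences were below 0, and the median was -1.32. Cyp51, the lanosterol demethylase, gave 984 units in imDC, 2114 in tDC and 592 in mDC, 3.75-fold below tDC. Fdps, farnesyl diphosphate synthase, gave 3473, 7002 and 1889.7 units, 3.69-fold lower, and Sqle, squalene epoxidase, 2786, 5478 and 1625 units, 3.29-fold lower. The tDC array was the high one in these 3 genes, and mDC lay below imDC too. Over the list, tDC lay above imDC for all tested genes but Ebp and Dhcr7. The mDC array lay above imDC for Hsd17b7 (0.66), Idi1 (0.40), Pmvk (0.37), Srebf2 (0.18) and Msmo1 (0.10), and below it for the rest. Msmo1 was 2.86-fold lower, Mvd 2.80-fold, Hmgcs1 2.60-fold and Insig1, a sterol-regulated inhibitor of the pathway, 2.34-fold. Srebf2, the factor that drives the pathway, was at -0.76, Idi1 lay just under 2-fold, and Ebp and Pmvk were at -0.37 and -0.30.

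The letters TCACNCCAC, of the sterol response element, stood in 1 of 13 of these promoters with a window, that of Hmgcs1, against 81 of 6456 tested genes (1.26%) and 1.24% of all windows. Its 160 bases (chr13:119690191-119690350, plus strand) are printed with the match in capitals, as the one member that holds these letters.
Hmgcs1: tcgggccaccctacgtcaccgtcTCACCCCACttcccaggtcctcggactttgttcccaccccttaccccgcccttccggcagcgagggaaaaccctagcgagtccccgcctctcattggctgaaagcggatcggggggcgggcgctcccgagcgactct
That the other 12 lack these letters in these windows says nothing about the factor.

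Lipid genes outside this pathway were also lower or level, with 3 lower and 0 higher of 14, against 2.8% and 3.43% of all genes. Scd1, the desaturase that makes oleate, gave 2014 units in imDC, 840.2 in tDC and 172 in mDC, 7.89-fold below tDC and 4.40-fold without background correction. Ch25h, which makes an oxysterol that restrains sterol synthesis, gave 9109.7, 6385 and 3063 units, 2.05-fold lower. Both stepped down over the 3 arrays. Glycolysis leaned the other way without reaching 2-fold in any gene above 0: 15 of 20 differences were above 0, with a median of 0.39, Egln3 at 0.90, and Fbp1, which works against glycolysis, the single lower gene. Among 23 genes of the citric acid cycle and respiratory chain 0 were higher or lower, with a median of -0.08. All 18 tested ribosomal protein genes were below 0, from -0.07 for Rpl23 to -0.80 for Rps6, with a median of -0.28 and 0 at 2-fold.

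Enzymes of nitric oxide, arginine and prostaglandin metabolism separated the arrays. Nos2, the inducible nitric oxide synthase, gave 149 units in imDC and 133 in tDC, above background on neither, and 640.4 in mDC, at least 7.98-fold higher. Arg1, which uses the same substrate, was 6.04-fold lower, as given above. Ptges, prostaglandin E synthase, gave 134, 251 and 1098 units, 6.21-fold above tDC, and Ptgs2, the inducible cyclooxygenase upstream of it, 103, 127 and 277 units, at least 2.80-fold. Nos2 and Ptgs2 were thus detected in mDC alone and Ptges stepped up from imDC to tDC to mDC. The remaining members of this list of 17, subunits of the phagocyte oxidase among them, lay between -0.34 (Alox5ap) and 0.79 (Slc7a2). Without background correction the bounds were at least 3.98-fold for Nos2 and at least 1.77-fold for Ptgs2, which does not reach 2-fold.

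Several acute-phase and complement genes were far higher in mDC. Of 12 tested acute-phase and complement genes, 7 were higher and 2 lower, against 3.43% and 2.8% of all genes, and the median was 1.19. That median depended on the processing, at 0.80 without background correction and 0.051 with no detection filter. Saa3, serum amyloid A3, gave 203 units in imDC, 2862 in tDC and 54182 in mDC, 18.9-fold above tDC. Cfb, complement factor B of the alternative pathway, was not above background in imDC (132 units) or tDC (144) and gave 1591 units in mDC, at least 21.2-fold higher. Hp, haptoglobin, which binds free haemoglobin, gave 556, 2334 and 13712 units, 6.11-fold. Saa3 and Hp were intermediate in tDC, while Cfb was seen in mDC alone. Orm1, orosomucoid, was 7.25-fold higher, Thbs1, thrombospondin, 2.46-fold, and Lcn2, which withholds bacterial iron carriers, 2.48-fold, at 26482 units in tDC and 65567 in mDC.

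Saa3 and Lcn2 were 2 of the 24 genes above 50000 units, where the scanner limit can understate differences. The list of iron and oxidative defence held 4 higher and 0 lower genes of 18, with a median of -0.14, and Lcn2 and Hp belong to it as well. Cp, ceruloplasmin, which oxidizes iron for export, was at least 6.68-fold higher, and Slc11a1 (NRAMP1), which pumps metal ions out of the phagosome, gave 8479, 13882 and 30195 units, 2.21-fold higher. Slc40a1, ferroportin, and Tfrc, the transferrin receptor, were at -0.79 and -0.59, and Hmox1 at 0.56. C1qb, of the classical pathway, was lower, at 641, 306 and 153 units, at least 2.96-fold. Without background correction the bounds were at least 9.63-fold for Cfb, at least 3.42-fold for Cp and at least 1.85-fold for C1qb, the last of which does not reach 2-fold.

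Matrix genes split as well, with 6 of 14 higher and 2 lower, against 3.43% and 2.8% of all genes. Behind Lox came Mmp14, a membrane-bound collagenase, at 1245 units in imDC, 1527 in tDC and 6210.4 in mDC, 4.28-fold above tDC. Timp1, an inhibitor of such proteases, gave 1274, 1184 and 4655 units, 4.22-fold, and Mmp2, a gelatinase that Mmp14 activates, 918, 1827 and 3567 units, 2.02-fold. Serpinb2, an inhibitor of plasminogen activators, was 2.83-fold higher. Timp2 gave 1778, 933 and 314 units, 3.44-fold lower, and Mmp12, macrophage elastase, 29263, 20344 and 9656 units, 2.09-fold lower. The inhibitors Timp1 and Timp2 thus lay at opposite ends, and Mmp9 (-0.07) and Mmp13 (0.03) were level.

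Genes of the cell cycle leaned lower in mDC, mostly by less than 2-fold. Their summed signal was 104365 units in imDC, 76099.7 in tDC and 71969 in mDC. Of 34 tested genes 1 was higher and 3 lower, beside 3.43% and 2.8% of all genes. Below 0 were 25 differences, and the median was -0.32. The D cyclins, which start the cycle, parted. Ccnd1 gave 4239 units in imDC, 1285 in tDC and 224 in mDC, 8.00-fold below tDC. Ccnd2 gave 3198, 3538 and 9561 units, 2.73-fold above tDC. Cdc20, an activator of the anaphase-promoting complex, and Cenpa, the centromeric histone, were each 2.06-fold lower. Ccnd1 without background correction was 5.21-fold lower, and Cdc20 1.96-fold. The letters TTTNGCGC, of an E2F site, stood in 6 of 29 promoters of the list with a window (20.7%), against 201 of 6456 tested genes (3.11%). Among all 2-fold lower genes they stood in 2 of 169 (1.18%).

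Stress genes were level apart from Hspa1a, an inducible chaperone of heat stress, at 159 units in imDC, 1226 in tDC and 241 in mDC, 6.73-fold lower in mDC than in tDC. It was the 1 lower gene among 18 of endoplasmic reticulum and heat stress. The lists of amino acid stress (20 genes) and apoptosis regulators (14 genes) held 0 genes at 2-fold in either direction, and that of lysosome and autophagy (23 genes) held Lgmn alone.

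**Figure D5:**
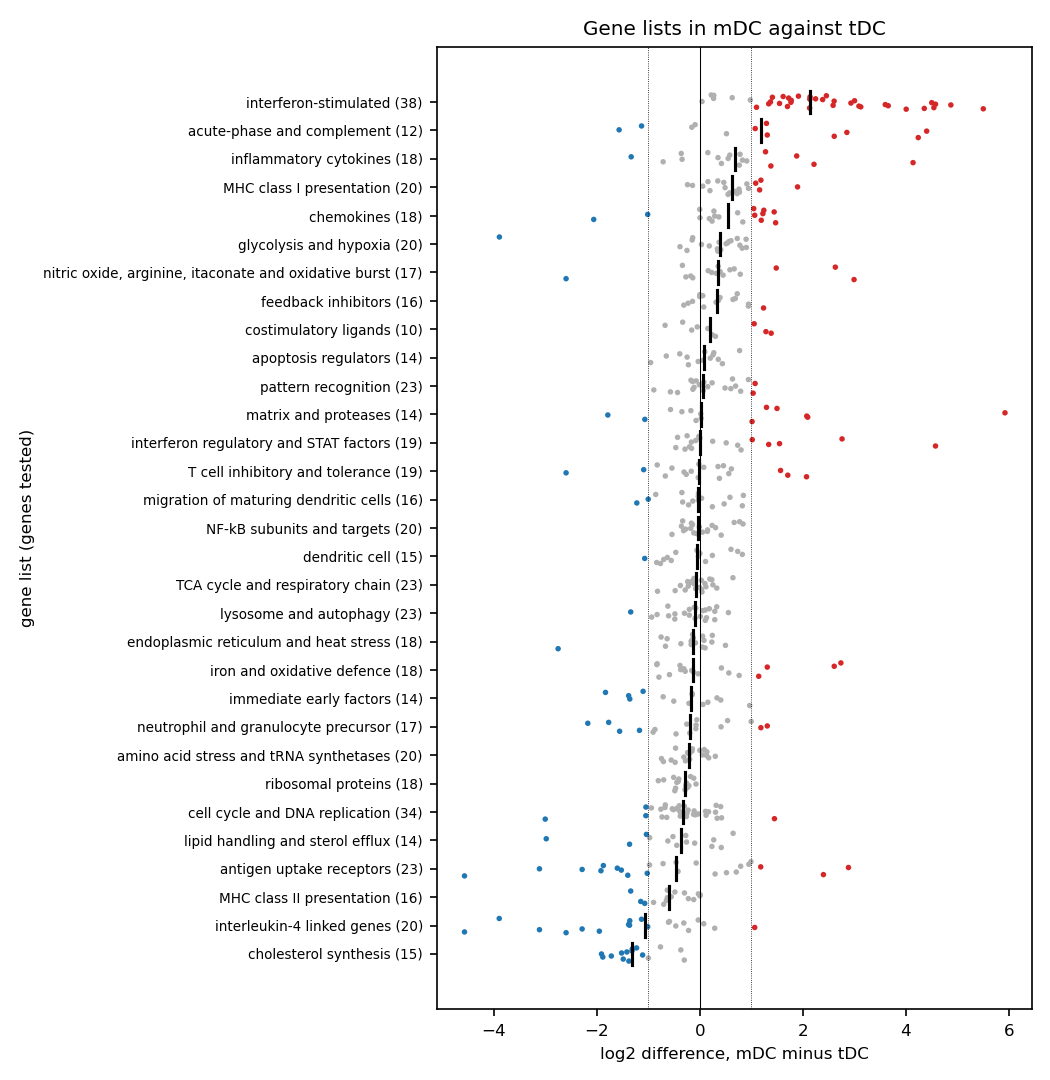
Log2 difference, mDC minus tDC, of each tested gene in the lists with at least 10 tested genes. Points are genes, red if at least 2-fold higher and blue if at least 2-fold lower, black bars are list medians and dotted lines mark 2-fold. Medians run from 2.14 for interferon-stimulated genes to -1.32 for cholesterol synthesis.

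Markers of other cell types that such marrow cultures can hold were measured beside these results. Their counts at 2-fold stand beside 3.43% higher and 2.8% lower among all genes. Hdc, histidine decarboxylase, the histamine-forming enzyme that leads the mast cell and basophil list, gave 1367 units in imDC, 7421 in tDC and 26092 in mDC, 3.64-fold above tDC. It was the 1 member of 7 tested to reach 2-fold. The summed signal of the 7 was 5288 units in imDC, 13244 in tDC and 33572 in mDC, most of it Hdc in the stimulated cultures. The other 6 lay between 0.35 (Cpa3) and 0.60 (Fcer1a), and Tpsb2, Tpsab1 and Mcpt4 were not above background. All 4 tested eosinophil genes were above 0, 2 of them by 2-fold, Epx at 1.26 and Prg3 at 1.08. Their summed signal went from 20091 in imDC through 39067 in tDC to 65192 in mDC. Prg2 made up most of that sum, at 15697, 29511 and 50215 units, and differed by 0.72. The eosinophil markers Siglecf, Ccr3 and Il5ra were above background on neither array.

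Genes of neutrophils and their precursors lay on both sides, with 2 of 17 higher and 4 lower, a median of -0.19, and a summed signal of 72175 units in imDC, 148451 in tDC and 186041 in mDC. The early granule proteases Elane and Prtn3 were lower, Elane at 365, 604 and 249.6 units, 2.94-fold, and Prtn3 at 681, 1485 and 669.5 units, 2.25-fold. Retnlg was 3.41-fold lower, and Camp, of later granules, 2.28-fold higher. Lcn2 (higher) and Cxcr2 (lower), given above, are the other members at 2-fold. Lcn2 alone gave 5145 units in imDC, 26482 in tDC and 65567 in mDC. Its step from tDC to mDC was larger than that of the summed signal, so the rest of the list together did not rise there. In a bulk sample, fewer cells of a type and less RNA per cell cannot be told apart.

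Among macrophage and monocyte genes 2 of 7 were higher and 2 lower. Adgre1, a macrophage surface marker, gave 2162, 4454 and 15947 units, 3.72-fold higher, and Ly6c1 1776, 4451 and 12454 units, 2.86-fold higher, while Mertk and C1qb were lower and Cd163, C1qa, C1qc, Ccr2 and Cx3cr1 were not above background. The summed signal of the 7 was 46362 units in tDC and 53887 in mDC. Lyz2, the brightest of them, fell from 35784 units in tDC to 24476 in mDC, a difference of -0.51. Apoe was at -0.45 and Fcgr1 at 0.95. Of the 4 tested erythroid and platelet genes 3 were higher, with Car2 at 1.46, Pf4 at 1.60 and Hba-a1 at a bound of 1.61. Their summed signal was 1399 units in tDC and 3160.1 in mDC. Hba-a1 was detected in mDC alone, and Hbb-bt, Klf1, Gata1, Alas2, Ppbp and Gp9 were not above background. T and NK cell genes held 1 higher of 7, Thy1 at 1.54, with Cd4, Cd8a and Gzmb not above background. B and plasma cell genes held 1 higher of 5, Blnk at 1.04, with Ms4a1 and Pax5 not above background. Plasmacytoid genes held 2 higher of 6, Bst2 and Ly6d, and 1 lower, Cox6a2, at least 7.43-fold, with Siglech at 0.09. Stromal and endothelial genes held 1 higher of 4, Dcn, at a bound of 1.05, and the collagens Col1a1, Col1a2 and Col3a1 were not above background. Without background correction Retnlg was 2.06-fold and Cox6a2 at least 3.79-fold lower, and Blnk stood at 1.86-fold. The bounds for Hba-a1 (at least 1.87-fold), Ly6d (at least 1.56-fold) and Dcn (at least 1.45-fold) then did not reach 2-fold. The part of such cells in the differences of the acute-phase, iron, chemoattractant and matrix genes was not tested.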

How the data were processed

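Expression was measured in 3 total RNA samples, 1 each of imDC, tDC and mDC, on Illumina MouseRef-8 v2 bead arrays of 1 colour. The deposited table gave an average signal per probe, a linear intensity, and a detection p-value, both per the file headers. The authors' processed values were also deposited, and their comparison with the signals showed log2 intensities: each column kept the rank order of its array's signals (Spearman 1), had a median of 6.98, and held nearly the same set of values as the others (sorted values within 0.00069), as quantile normalization gives. The submitters' processing notes name GenomeStudio 2011.1 without its role.

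The intensities were background corrected here with normexp, with an offset of 16 and noise parameters inferred from the detection p-values, quantile normalized over the 3 arrays and taken to log2 (neqc, limma 3.58.1, R 4.3.3). Tables were handled in Python 3.11.15 with pandas 2.3.3. Probes with a detection p under 0.01 on the tDC or mDC array were kept, 11153 of 25697. In the platform annotation 23978 probes had 1 gene symbol, 0 had several and 1719 had none, 665 of the last being kept. These are unnamed here and entered no count. RefSeq (GRCm38.p6) held 23962 of the named probes by gene ID. The probe with the highest mean level stood for a gene. Differences are mDC minus tDC, with no test at 1 array a group. A gene detected on 1 array alone was given a bound against that of the other array's dimmest detected value and the probe's own reading which was higher.

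There were 31 gene lists and 10 marker lists, and a median is reported for lists with at least 10 tested genes. The comparison, the members and the lists were chosen with earlier results of these data known. The naming rule took the top 10 in each direction of genes seen on both arrays, the top 5 bounds in each direction, at most 4 members per list and direction at 2-fold, and members of the chemokine, cytokine, costimulatory, MHC class II, tolerance, uptake receptor and reference lists. Predicted models were passed over among the top genes. Genes named beyond this rule were chosen after their values were seen. The steps were tested on simulated data. Alternatives were no background correction, an offset of 50, median scaling, the tDC and mDC arrays normalized alone, the authors' processed values, a detection p of 0.05, detection on both arrays, no filter, and the mean of a gene's probes. The number of arrays limits the precision.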

Additional observations from a re-analysis of the deposited data

How the results depend on the processing

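No paired analysis was possible because each group had 1 array, so that the shared replicate number paired nothing, and leaving out an array would leave no comparison. Under 9 alternatives the count of higher genes ranged from 180 to 301 and that of lower genes from 126 to 254. The lower count was 126 without background correction and 136 with the authors' processed values, against 219, and these settings gave 180 and 190 higher genes against 269. Higher genes made up 51.9% to 58.8% of all called genes. Of 124 named genes at 2-fold, 104 kept 2-fold in each of the 9 alternatives that held them, 20 lost it in at least 1, and 0 reversed. The setting of detection on both arrays held only 99 of the 124. The rest, all given as bounds, were not measured in it. The 20 were Blnk, C1qb, Ccl24, Ccr6, Cd207, Cd209c, Cdc20, Clec4b1, Cxcr4, Dcn, F13a1, Havcr2, Hba-a1, Ly6d, Maff, Ptgs2, Scarf1, Socs1, Tlr1 and Tnfsf15. When probes of a gene were averaged, Clec5a was 2.39-fold lower, Klk1b11 at least 4.71-fold lower and Oasl1 at least 19.0-fold higher.

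Of 31 list medians, 27 kept their sign in all alternatives, and those of NF-kB, IRF and STAT, matrix and dendritic cell genes, all near 0, did not. Without background correction the medians were 1.91 for interferon-stimulated genes, 0.44 for cytokines, -1.07 for cholesterol synthesis, 0.80 for acute-phase genes and -0.79 for interleukin-4 linked genes, and with the authors' values 1.96, 0.46, -1.11, 0.85 and -0.83 in that order. With an offset of 50 the acute-phase median was 1.01. At a detection p of 0.05 it was 0.91 and that of chemokines 0.79. Over genes detected on both arrays the medians were 2.32 for interferon-stimulated genes, 0.49 for cytokines, 0.79 for chemokines and -0.24 for uptake receptors. With no filter, which adds undetected genes, they were 0.051 for acute-phase, -0.88 for interleukin-4 linked and -0.24 for dendritic cell genes. The causes were not tested, apart from the added or dropped genes that the filters bring by construction. Signal over background limits the dim genes: the median signal of undetected probes was 97.6 units in tDC and 98.2 in mDC, so a gene near these values has no measurable fold.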

Other observations

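Solute carriers, the largest family of transporters by shared gene name, showed 8 higher and 6 lower genes of 152 tested, with a median of 0.00. Over all genes 3.43% were higher and 2.8% lower. Among interleukins and their receptors grouped in the same way, 6 of 35 were higher and 3 lower, beside the same background. The higher ones beyond the cytokines already given were the receptor chains Il15ra and Il2ra. The lower ones were the receptors Il18r1, Il1r2 and Il31ra. The inhibitors of cyclin-dependent kinases also parted, with Cdkn2a higher and Cdkn1c and Cdkn2c lower among 8 tested genes of that name. These families were picked after their values were seen.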
